A study of Mus musculus with 4 samples.

Results

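The response of keratinocytes to interleukin-4 (IL-4) was compared between 2 genotypes, cluster by cluster, to find responses that were lost, weakened, reversed, gained or strengthened in the mutant line. Expression had been measured in primary keratinocytes of male mice on 4 Affymetrix Clariom S Mouse arrays, 1 array per group. The groups were HMGB1 KO with IL-4, HMGB1 KO untreated, WT with IL-4 and WT untreated. Recombinant IL-4 was given at 100 ng/ml for 12 h in EpiLife medium, and untreated dishes had the same medium. The labels call the mutant an HMGB1 knockout and the design text K5-HMGB1. The labels do not say how the allele was made, in which cells it acts, or whether dishes of a genotype came from the same animals. Fewer cells of a type and less RNA per cell cannot be told apart in such cultures.

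Each cluster was described by the difference of the responses: KO with IL-4 minus KO untreated, less WT with IL-4 minus WT untreated, on the log2 scale. A positive value means that the response was higher in KO. Of 22206 transcript clusters (probe groups that mostly stand for 1 gene each), 11456 reached the level filter of 5.33, the median of all table values, on at least 1 of the 4 arrays. With 1 array per group no difference has a replicate check and no p-value is given. The words rose, fell, lost and gained below refer only to a size of at least 2-fold (1 on the log2 scale) between these arrays. Gene symbols exist only for clusters in the 2 deposited tables, which list clusters at least 2-fold different between IL-4 and untreated dishes of WT, or between KO and WT dishes given IL-4. Both selections use arrays that enter the difference of the responses, so large differences are enriched among the 2568 clusters with 1 symbol.

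IL-4 is a cytokine of type 2 immunity that signals in keratinocytes through its receptor, JAK kinases and the transcription factor STAT6. HMGB1 is an abundant DNA-bending chromatin protein. Several genes below belong to the ATF4 pathway, in which amino acid shortage or other stress raises translation of the transcription factor ATF4, which then switches on genes for amino acid synthesis and uptake. Others are targets of NRF2, the transcription factor of the antioxidant response, or genes of epidermal differentiation.

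The targeted gene separated the genotypes and not the treatments. Hmgb1 had log2 values of 7.60 with IL-4 and 7.97 untreated in KO, against 14.17 with IL-4 and 14.71 untreated in WT. Its responses, -0.37 in KO and -0.55 in WT, were both under 2-fold. The KO values lie under 9.21, the level that 95% of the 5222 negative control rows do not exceed. Control rows are a rough guide to noise, and they varied more than clusters did. Of 3217 control rows above the level filter, 43.3% had a difference of the responses of at least 2-fold, and 7.4% one of at least 3 on the log2 scale. Of the 11456 clusters these shares were 10.2% and 0.096%. Among rows with all 4 values between 9.21 and 16, which are called well measured below, the shares at 2-fold were 25.4% of 126 control rows and 6.12% of 4378 clusters, of which 2.15% were higher and 3.97% lower in KO. Values above 16 exceed what a 16-bit scan can hold, so their scale is uncertain.

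The KO response was at least 2-fold higher than the WT response in 506 clusters (4.42%) and at least 2-fold lower in 666 (5.81%). The clusters at the edge show how little the threshold separates: among those higher in KO, Sdr9c7 lay just inside at 1.01 and Il34 and Sema3e just outside at 0.99. In 361 clusters (3.15%) a WT response was lost, meaning that it was under 2-fold in KO and at least 2-fold different from WT. These were 151 falls (1.32%) and 210 rises (1.83%). In 127 (1.11%) the response was weakened but still at least 2-fold in the same direction, for 89 falls (0.777%) and 38 rises (0.332%). In 9 (0.0786%) both responses passed 2-fold in opposite directions, with 7 (0.0611%) rising in KO and 2 (0.0175%) rising in WT. In 286 (2.5%) a response was gained, under 2-fold in WT and at least 2-fold in KO, for 100 rises (0.873%) and 186 falls (1.62%). In 69 (0.602%) the response was strengthened, for 27 rises (0.236%) and 42 falls (0.367%). A further 320 clusters (2.79%) differed by 2-fold between genotypes while neither response reached it.

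**Figure D1:**
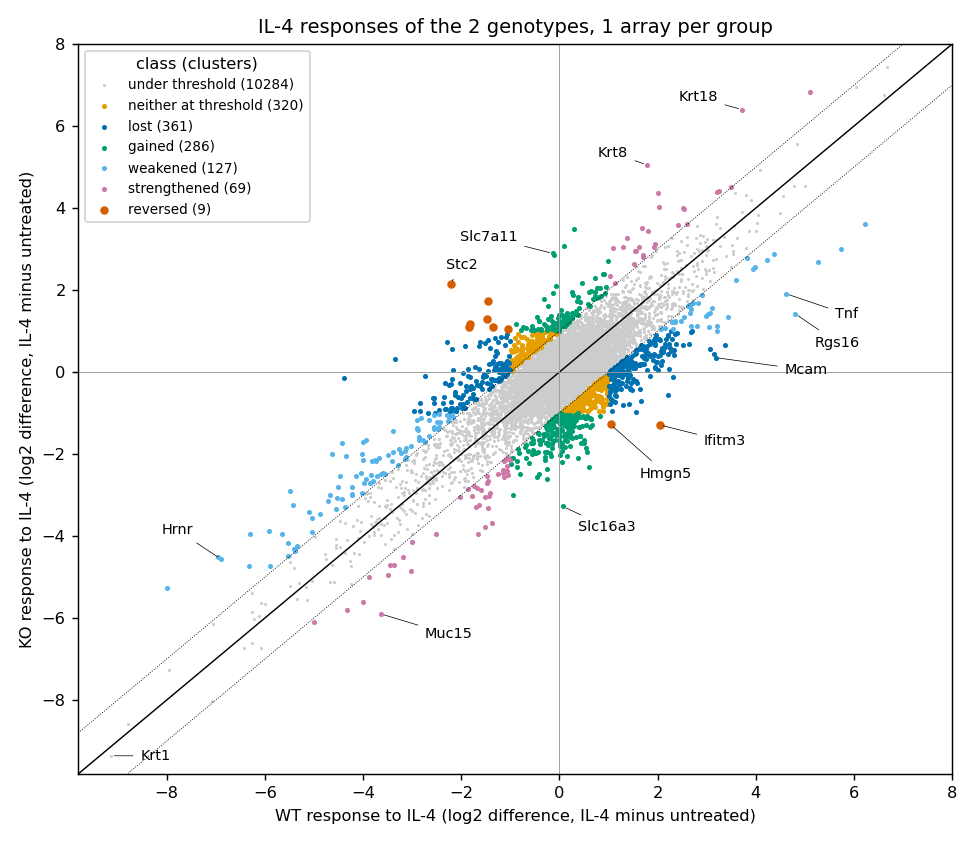
Response to IL-4 in KO (y axis) against WT (x axis), each as the log2 difference IL-4 minus untreated, for 11456 transcript clusters with 1 array per group. The solid line marks equal responses and the dotted lines a 2-fold difference between them; the 9 reversed clusters lie in the upper left and lower right, and most clusters lie between the dotted lines.

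In KO 1045 clusters rose (9.12%) and 1090 fell (9.51%), and in WT 1250 rose (10.9%) and 1076 fell (9.39%). The robust SD of the response (from the median absolute deviation) was 0.63 in KO and 0.64 in WT, and that of the difference of the responses was 0.53. To avoid choosing by either genotype, clusters were taken whose mean of both responses passed 2-fold. The 968 that fell on this mean had a median response of -1.74 in KO and -1.82 in WT. The 973 that rose had medians of 1.4 in KO and 1.52 in WT. The response was smaller in KO for 56.5% of the falls and 57.6% of the rises.

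The difference of the responses can lie in the IL-4 dishes, where KO and WT ended apart, or in the untreated dishes, where they started apart. Lost and weakened falls were divided differently from lost and weakened rises in this respect. Of 151 falls lost in KO, 68 had a 2-fold difference between KO and WT in untreated cultures only and 21 in IL-4 cultures only. Of 89 weakened falls the numbers were 51 untreated only and 8 with IL-4 only. Rises showed the opposite division, with 66 of 210 lost rises apart in IL-4 cultures only and 27 untreated only, and 18 of 38 weakened rises apart with IL-4 only and 4 untreated only. Gained falls were also apart more often with IL-4 only, in 89 of 186 clusters, against 13 untreated only. So were strengthened falls, in 21 of 42 against 6, and gained rises, less unequally, in 25 of 100 against 17. Falls end and rises start at their lower level, where weak signal limits the comparison. The effect of this on the division was not tested. The remainder were under 2-fold in each treatment or, in few cases, past it in both. Over all 2568 clusters with 1 symbol, 494 were apart in IL-4 cultures only and 242 in untreated cultures only. Some of these were named because of a 2-fold difference with IL-4, so this is not a matched background. Of the 186 gained falls, 93 had no symbol and lie outside it.

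**Figure D2:**
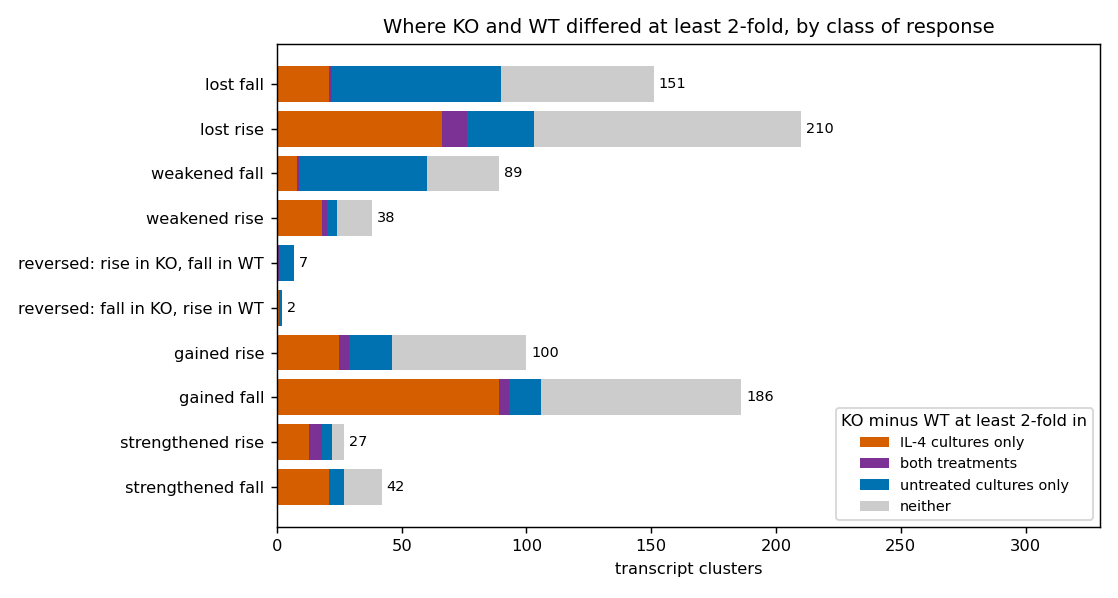
Number of transcript clusters in each class of genotype-dependent response, divided by whether KO and WT differed at least 2-fold in IL-4 cultures only, both treatments, untreated cultures only, or neither. Untreated-only differences make up most of the called part of lost and weakened falls, and IL-4-only differences that of lost, weakened, gained and strengthened rises and of gained and strengthened falls.

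The 7 clusters that rose in KO and fell in WT included enzymes and a transporter of amino acid metabolism, and 5 of them were on the ATF4 list. Under cyclic loess normalization Pck2, Deptor and Aldh18a1 became lost falls, with KO responses just under 2-fold, and at a 3-fold threshold 1 reversed cluster was left. Stc2, a secreted glycoprotein gene (chromosome 11, 31359441 to 31370061 in GRCm38.p6), had 8.43 with IL-4 and 6.27 untreated in KO, against 8.52 with IL-4 and 10.74 untreated in WT. It thus rose by 2.15 in KO and fell by 2.22 in WT, the largest difference of the responses among clusters with 1 symbol, at 4.38. The IL-4 dishes were alike and KO minus WT was -4.47 untreated, with both IL-4 values and the KO untreated value under 9.21.

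Trib3, a pseudokinase that is induced by ATF4 (chromosome 2, 152337425 to 152344060), had 10.52 with IL-4 and 8.81 untreated in KO, against 9.99 and 11.45 in WT. Slc7a3, a transporter of cationic amino acids (chromosome X, 101079146 to 101090452), had 8.15 with IL-4 and 6.98 untreated in KO, against 9.36 and 11.18 in WT. Unlike the other 6, it was at least 2-fold lower in KO under both treatments. Pck2, the mitochondrial phosphoenolpyruvate carboxykinase (chromosome 14, 55540263 to 55550020), had 7.90 with IL-4 and 6.80 untreated in KO, against 7.60 and 9.45 in WT. The difference of the responses was 3.17 for Trib3, 2.99 for Slc7a3 and 2.95 for Pck2.

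The other 3 had all 4 values above 9.21 and below 16. Mthfd2, a mitochondrial enzyme of the folate cycle (chromosome 6, 83305704 to 83326011), had 10.98 with IL-4 and 9.68 untreated in KO, against 10.94 and 12.43 in WT. Aldh18a1, which makes the precursor of proline (chromosome 19, 40550257 to 40588463), had 10.38 with IL-4 and 9.30 untreated in KO, against 10.58 and 11.94 in WT. Deptor, an inhibitor of the growth-controlling kinase mTOR (chromosome 15, 55112317 to 55259273), had 10.44 with IL-4 and 9.39 untreated in KO, against 9.91 and 10.96 in WT. Their differences were 2.79, 2.45 and 2.10. For each of these 3 genes the IL-4 values were within 0.53 of each other and the untreated KO value was the lowest of the 4.

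The rest of the ATF4 and integrated stress list went the same way. Of 44 genes on the list 23 had a named cluster, and in 21 of them the response was at least 2-fold higher in KO. None was 2-fold lower, and the other 2, Cebpb and Gpt2, were above 0. The list median was 2.16, against -0.12 over all 2568 clusters with 1 symbol. The list was chosen with this pattern already known. Since 22 of the 23 were named because they fell in WT, the fitting background is the 1076 clusters that fell in WT. Of these, 23.0% had a 2-fold higher response in KO and 3.9% a 2-fold lower one, with a median of 0.42. In 18 of the 23 the genotypes were 2-fold apart in untreated cultures only, and in none with IL-4 only. Of all lost falls 45.0% were apart in untreated cultures only and 13.9% with IL-4 only. Of all weakened falls these shares were 57.3% and 8.99%. The list median of the KO minus WT difference was 0.04 with IL-4 and -1.81 untreated.

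The lost responses included Atf4 itself, with 14.25 with IL-4 and 14.23 untreated in KO, against 14.29 and 15.40 in WT. Atf5, a related transcription factor, had 7.29 with IL-4 and 6.55 untreated in KO, against 7.38 and 9.69 in WT. Chac1, which degrades glutathione, had 7.34 with IL-4 and 7.43 untreated in KO, against 6.86 and 9.61 in WT. In each of these 3 genes the WT untreated array was the only high one. Cth, an enzyme of cysteine synthesis, had 9.48 with IL-4 and 8.64 untreated in KO, against 9.13 and 10.44 in WT. The large neutral amino acid transporter Slc7a5 had 13.28 with IL-4 and 12.59 untreated in KO, against 13.24 and 14.76 in WT. The glycine transporter Slc6a9 was similar, with 11.41 and 10.77 in KO against 10.70 and 12.33 in WT. Differences of the responses were 1.13 for Atf4, 3.04 for Atf5, 2.66 for Chac1, 2.16 for Cth, 2.22 for Slc7a5 and 2.27 for Slc6a9.

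Asparagine synthetase Asns (1.70) and Psph (2.56), the last enzyme of serine synthesis, were lost falls too. Psat1, the step before Psph, was a weakened fall at 1.12, with a response of -1.34 in KO and -2.46 in WT. Slc7a11, the cystine importer that both ATF4 and NRF2 control, was the member with a gained rise. It had 13.83 with IL-4 and 10.93 untreated in KO, against 12.26 and 12.39 in WT, so KO lay below WT untreated and above it with IL-4. The 9 well measured members all had a 2-fold higher response in KO, with a median of 1.47.

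**Figure D3:**
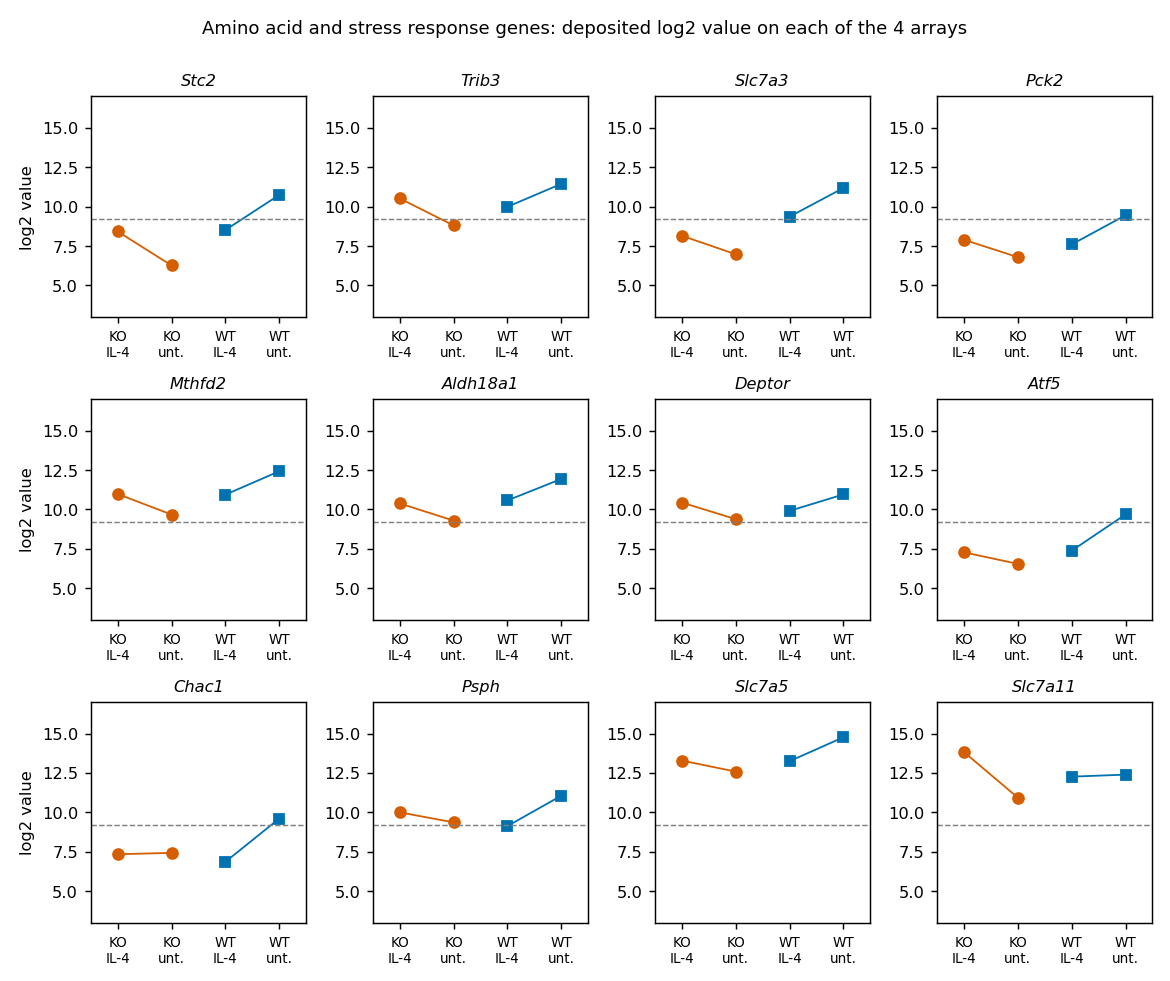
Deposited log2 value of 12 amino acid and stress response genes on each array (circles, KO; squares, WT; "unt.", untreated; lines join the 2 dishes of a genotype; dashed line, 9.21, the level that 95% of control rows do not exceed). In KO the IL-4 value is above the untreated one in every panel but Chac1, and in WT it is below the untreated one in all 12, by 0.13 for Slc7a11.

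The promoters of the list were searched for the ATF4 recognition element, here the letters TGATGNAA on either strand, in windows from 250 bases before to 50 after each start in RefSeq (GRCm38.p6). Of the 21 members with a 2-fold higher response in KO, 16 had a window and 6 held the letters: Asns, Chac1, Pck2, Slc7a11, Trib3 and Vldlr. The share over all genes in the table was 4.51% of 27025. The windows of 4 of them are shown because these genes span the lost, reversed and gained responses. The positions are chr2:119350992-119351291, plus strand, for Chac1, chr14:55540016-55540315, plus strand, for Pck2, chr3:50443564-50443863, minus strand, for Slc7a11 and chr2:152344011-152344310, minus strand, for Trib3. Capitals mark the match, and Slc7a11 has 2. A match is a run of letters and not evidence of binding. The genes came from the ATF4 list, so the comparison with all genes says nothing about the genotype.
Chac1: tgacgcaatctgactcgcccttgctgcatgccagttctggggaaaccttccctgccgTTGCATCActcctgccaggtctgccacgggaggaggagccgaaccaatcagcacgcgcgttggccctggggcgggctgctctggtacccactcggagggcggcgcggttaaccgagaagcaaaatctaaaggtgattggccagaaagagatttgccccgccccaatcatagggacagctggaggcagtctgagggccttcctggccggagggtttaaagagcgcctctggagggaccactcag
Pck2: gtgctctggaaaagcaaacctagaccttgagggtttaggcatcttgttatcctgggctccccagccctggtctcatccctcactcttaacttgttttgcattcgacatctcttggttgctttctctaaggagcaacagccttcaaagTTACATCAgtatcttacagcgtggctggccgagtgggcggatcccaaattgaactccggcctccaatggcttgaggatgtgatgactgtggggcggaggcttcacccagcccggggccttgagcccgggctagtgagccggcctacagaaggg
Slc7a11: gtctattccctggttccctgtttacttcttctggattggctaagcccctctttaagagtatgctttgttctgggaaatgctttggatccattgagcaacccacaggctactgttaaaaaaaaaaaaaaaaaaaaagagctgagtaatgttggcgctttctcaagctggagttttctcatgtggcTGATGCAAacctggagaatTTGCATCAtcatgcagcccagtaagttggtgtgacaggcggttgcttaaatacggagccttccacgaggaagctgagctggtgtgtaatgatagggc
Trib3: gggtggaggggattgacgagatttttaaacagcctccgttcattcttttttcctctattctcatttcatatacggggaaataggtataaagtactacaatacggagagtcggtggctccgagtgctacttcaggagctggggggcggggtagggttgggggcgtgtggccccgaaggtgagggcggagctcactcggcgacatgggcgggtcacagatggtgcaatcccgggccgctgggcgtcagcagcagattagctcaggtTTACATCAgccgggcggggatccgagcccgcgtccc

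Lost falls outside this list included Penk, the gene for the enkephalin precursor, with 6.14 with IL-4 and 5.83 untreated in KO, against 5.35 and 8.70 in WT. All of its values were under 9.21. The vasodilator peptide gene Adm had 10.85 with IL-4 and 9.92 untreated in KO, against 9.92 and 10.98 in WT. The cysteine protease gene Ctsc had 10.35 with IL-4 and 11.10 untreated in KO, against 10.12 and 12.68 in WT. Angptl7, a secreted angiopoietin-like protein gene, differed in kind, being high in both KO dishes, at 12.32 with IL-4 and 11.76 untreated, and low in WT, at 7.76 with IL-4 and 9.93 untreated.

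Epidermal differentiation genes made up many of the weakened falls. Of 62 cornified envelope and suprabasal genes 57 had a named cluster, all of which fell in WT and 47 in KO. The response was at least 2-fold smaller in KO for 23 of them, 16 weakened and 7 lost, and 2-fold larger for none. This is 23 of 57, beside 23.0% of all clusters that fell in WT, and the list median was 0.85 beside 0.42. The median WT response of the list was -3.67, and this background was not matched for the size of the fall. Most of the 23 were genes of the Lce1 and Lce3 families. Probes may be shared in part between such related genes, so these clusters may not be independent. Other members, such as Krt1 (-0.23), Krt10 (-0.07) and Ivl (0.11), were under 2-fold. Krt78, a suprabasal keratin, had 7.61 with IL-4 and 9.60 untreated in KO, against 6.91 and 11.54 in WT. Lor, the main protein of the cornified envelope, had 5.76 with IL-4 and 8.66 untreated in KO, against 4.71 and 10.19 in WT. Hrnr, a filaggrin relative, had 11.52 with IL-4 and 16.09 untreated in KO, against 9.69 and 16.60 in WT.

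These 3 were weakened in different ways: untreated Krt78 and Lor were lower in KO than in WT, and Hrnr and Lor were higher in KO than in WT with IL-4. Both IL-4 values of Krt78 and all Lor values except WT untreated were under 9.21. Both untreated Hrnr values were above 16, so the sizes of these differences are uncertain. Over the list the median KO minus WT difference was 0.01 with IL-4 and -0.71 untreated. The late cornified envelope gene Lce1k, outside the list, was well measured, with 10.25 with IL-4 and 13.50 untreated in KO, against 9.33 and 14.76 in WT. Dnase1l2, a nuclease of cornifying cells, had 10.69 with IL-4 and 12.41 untreated in KO, against 10.50 and 14.52 in WT. The 15 well measured list members had a median of 0.47, with 4 at 2-fold, against 0.85 over all 57.

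Of 30 named clusters of 40 listed barrier lipid genes, 6 had a 2-fold smaller fall in KO, and the median of the 30 was 0.35. Of the 30, 27 fell in WT, so the count is near the 23.0% of all clusters that fell in WT. Among them were Alox12b (1.02), a lipoxygenase of the ceramide pathway, and the phospholipase A2 genes Pla2g4f (1.86) and Pla2g4d (1.83), both dim, with Pla2g4d at most 5.85. Fads2, a fatty acid desaturase, was a lost rise at -1.19. Of 27 named clusters of epidermal proteases and inhibitors, 4 were 2-fold higher and 2 lower, with a median of 0.06. Of 9 named antimicrobial clusters, 8 of which fell in WT, 5 were 2-fold higher and 1 lower in KO, among them the defensin Defb4, a weakened fall with 6.04 with IL-4 and 7.70 untreated in KO, against 5.09 and 9.04 in WT. The lower one, the protease inhibitor gene Wfdc12, was a strengthened fall, with 5.34 with IL-4 and 9.02 untreated in KO, against 4.71 and 6.08 in WT. Both genes were under 9.21 on all 4 arrays, and only 2 of the 9 clusters were well measured.

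Rises that were lost or weakened in KO included those of some cytokines and matrix proteases. Tnf, the inflammatory cytokine, had 9.32 with IL-4 and 7.41 untreated in KO, against 11.56 and 6.95 in WT, a difference of the responses of -2.71. Mmp9, a gelatinase, had 10.04 with IL-4 and 7.36 untreated in KO, against 12.65 and 7.39 in WT, at -2.58. Rgs16, a brake on G protein signalling, had 6.55 with IL-4 and 5.13 untreated in KO, against 9.56 and 4.76 in WT, at -3.38. In all 3 the WT IL-4 array was the highest. Their untreated values, and the KO IL-4 value of Rgs16, were under 9.21, so the sizes of these differences are uncertain.

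Calcb, a calcitonin gene-related peptide gene, was a weakened rise at -2.63, as were the monocyte attractant Ccl2 at -1.95, the chemokine Cxcl3 at -1.56, under 9.21 on every array, and the macrophage growth factor Csf1 at -1.35. On the chemokine list 3 of 7 named clusters were 2-fold lower in KO and none higher, and on the cytokine list 4 of 17 were lower and none higher. Of the 1250 clusters that rose in WT, 20.0% were 2-fold lower and 2.16% higher, with a median of -0.43. The median was -0.62 for chemokines and -0.04 for cytokines. Of the cytokines 7 fell in WT, so that background fits only part of the list. Of 14 named growth factor ligand clusters 5 were 2-fold higher in KO and 3 lower, with a median of 0.59. Of the 14, 9 fell in WT, among them all 5 higher ones. Of all clusters that fell in WT, 23.0% were higher and 3.9% lower. Stc2 and Vegfa, 2 of the 5, are also on the ATF4 list. Among the higher ones were falls of the EGF receptor ligands Epgn (1.57), Areg (1.39) and Ereg (1.37), with Areg and Ereg under 9.21 on every array. Of 11 named NF-kB feedback and adhesion clusters none differed by 2-fold, and the median was -0.30. Tnfaip3, which restrains NF-kB, rose by 2.48 in KO and 3.05 in WT.

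Among lost rises, Mcam, a cell adhesion molecule, was the largest well measured one. It had 12.28 with IL-4 and 11.93 untreated in KO, against 13.25 and 10.06 in WT, so KO untreated already lay 1.87 above WT untreated. Flt1, a receptor for vascular endothelial growth factor, had 6.25 with IL-4 and 5.81 untreated in KO, against 9.69 and 6.55 in WT. Only the WT IL-4 array was above 9.21. Inhba, the activin subunit, had 12.95 with IL-4 and 11.98 untreated in KO, against 15.70 and 13.02 in WT. The RNase gene Zc3h12a, which degrades cytokine messages, had 10.10 with IL-4 and 10.49 untreated in KO, against 11.34 and 9.90 in WT.

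Of 27 named matrix, protease and TGF-beta clusters, 6 were 2-fold lower in KO and 2 higher, with a median of -0.39. Since 20 of them rose in WT, the lower ones are near the 20.0% of all clusters that rose in WT, whose median was -0.43. Tnc, the matrix protein tenascin C, was a weakened rise at -2.08 whose WT IL-4 value, 16.63, was above 16. Mmp13 was a lost rise at -1.51. Lox, whose product cross-links collagen, was a strengthened rise at 1.71. Lox had 15.77 with IL-4 and 8.95 untreated in KO, against 12.14 and 7.04 in WT, so the KO IL-4 array was the highest and both untreated values were under 9.21. The smooth muscle gene Tagln was a weakened rise, with 13.29 with IL-4 and 12.17 untreated in KO, against 13.01 and 10.20 in WT, and the mechanosensitive gene Ankrd1 a strengthened rise at 2.36.

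Few genes of the IL-4 receptor's own pathway could be named. Of 34 genes on the IL-4 receptor and STAT6 list 8 had a named cluster, of which 3 were 2-fold lower in KO and 2 higher, with a median of 0.15. Of the 8, 5 rose in WT, where 20.0% of all clusters were lower, and 3 fell, where 23.0% were higher. The 3 lower ones were lost rises. Socs2, a suppressor of cytokine signalling, had 7.19 with IL-4 and 8.17 untreated in KO, against 8.39 and 6.84 in WT. Cish, another inhibitor of STAT signalling, had 7.07 with IL-4 and 6.88 untreated in KO, against 8.41 and 7.12 in WT. Il2rg, the receptor chain that IL-4 shares with other cytokines, had 8.24 with IL-4 and 7.57 untreated in KO, against 9.56 and 7.19 in WT. All 4 values of Socs2 and Cish were under 9.21, so these sizes are uncertain.

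Interferon-induced transmembrane genes moved apart. Ifitm3, which blocks virus entry, was a reversed response (chromosome 7, 141009590 to 141010744), with 10.89 with IL-4 and 12.18 untreated in KO, against 13.56 and 11.53 in WT. It changed by -1.29 in KO and rose by 2.04 in WT, a difference of -3.32. Its neighbour Ifitm2 (chromosome 7, 140954837 to 140959686) was a gained fall, with 11.26 with IL-4 and 13.22 untreated in KO, against 13.13 and 12.56 in WT. Both genes were well measured, and in both the KO IL-4 array was the lowest of the 4. Probes may be shared in part between such related genes, so their values may not be independent.

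The interferon-induced list as a whole was mixed, with 10 named clusters of 38 genes, 4 of them 2-fold lower in KO and 1 higher, and a median of -0.29. Of the 10, 6 rose in WT, where 20.0% of all clusters were lower. Another 2, Ifitm2 and Gbp2, were named only because they were at least 2-fold lower in KO than in WT with IL-4. Of the 220 clusters named in that way alone, 59.5% had a 2-fold lower response in KO. The higher one was Mx2, a lost fall at 1.44 that was dim on every array, and the other lower ones were Gbp2 (-1.53) and the RNA sensor Ddx58 (-1.15). The 4 lower genes were searched for the letters GAAA, 2 bases of any kind and GAAA again, the core of the interferon-stimulated response element, on either strand of the same promoter windows. All 4 held them, beside 3.99% of all genes. They came from a list of interferon-induced genes, so the comparison with all genes says nothing about the genotype. No comparison with the rest of the list was made, and a match is not evidence of binding. The windows of Ifitm2 (chr7:140955912-140956211, minus strand) and Ifitm3 (chr7:141010695-141010994, minus strand) are shown as the 2 most strongly affected members, with matches in capitals, 1 in Ifitm2 and 2 in Ifitm3.
Ifitm2: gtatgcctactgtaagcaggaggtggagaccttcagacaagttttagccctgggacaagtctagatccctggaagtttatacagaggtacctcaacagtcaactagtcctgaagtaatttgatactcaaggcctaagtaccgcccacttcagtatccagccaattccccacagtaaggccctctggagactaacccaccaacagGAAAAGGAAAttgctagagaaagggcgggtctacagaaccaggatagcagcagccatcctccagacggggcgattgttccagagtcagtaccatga
Ifitm3: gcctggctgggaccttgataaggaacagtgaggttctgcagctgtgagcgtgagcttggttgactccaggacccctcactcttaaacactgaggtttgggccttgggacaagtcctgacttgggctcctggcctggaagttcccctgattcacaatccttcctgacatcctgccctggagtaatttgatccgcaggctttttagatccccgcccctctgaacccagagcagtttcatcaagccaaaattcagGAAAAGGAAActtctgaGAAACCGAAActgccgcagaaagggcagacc

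The other cluster that fell in KO and rose in WT was Hmgn5, a nucleosome-binding protein gene (chromosome X, 109004537 to 109013380). It had 7.20 with IL-4 and 8.47 untreated in KO, against 7.73 and 6.68 in WT, all under 9.21, and a difference of -2.32. Its WT response was under 2-fold after cyclic loess (0.93) or median centring (0.97).

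Gained falls were led by Slc16a3, the exporter of lactate. It had 10.08 with IL-4 and 13.36 untreated in KO, against 13.16 and 13.09 in WT, so that 3 arrays were alike and the KO IL-4 array alone was low. The difference was -3.35. Of the 15 named hypoxia and glycolysis clusters 10 fell in KO and 11 in WT. The fall was larger in KO for Egln3, an oxygen sensor (-4.86 in KO and -3.02 in WT), and for the carbonic anhydrase Car12 (-4.95 in KO and -3.49 in WT). On this list 5 were 2-fold lower in KO and 3 higher, with a median of -0.55. The 3 higher ones fell in WT, as did Egln3, Car12 and Pfkl among the lower ones. Pfkl lay at the edge of the threshold. Of all clusters that fell in WT, 3.9% were lower and 23.0% higher. P4ha2, also lower, rose in WT, where 20.0% of all clusters were lower. Slc16a3 was named only because it was at least 2-fold lower in KO than in WT with IL-4. Of the 220 clusters named in that way alone, 59.5% had a 2-fold lower response in KO.

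Many of the named gained falls were genes of histones and mitosis. Histones package newly copied DNA, and most of their genes are expressed while DNA is replicated. Among symbols of the replication-type histone clusters and H2afx, a group formed after the values were seen, 34 of 35 were gained falls. Of these 34 clusters 26 lie on chromosome 13 and 5 on chromosome 3, and they comprised 2 of H1, 9 of H2A, 8 of H2B, 8 of H3 and 7 of H4. The response lay between -2.60 and -1.11 in KO, with a median of -1.51, and between -0.81 and 0.66 in WT, with a median of 0.18. The KO minus WT difference had a median of -1.28 with IL-4 and of 0.41 untreated.

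For a well measured example, Hist1h2bm had 9.45 with IL-4 and 11.47 untreated in KO, against 11.17 and 11.16 in WT, with only the KO IL-4 array low. These clusters were named only because they were at least 2-fold lower in KO than in WT with IL-4, and 59.5% of the 220 clusters named in that way alone had a 2-fold lower response in KO. Histone copies are nearly identical, so probes can be shared and the 34 are not independent. The exception was the linker histone Hist1h1c, a lost fall, with a response of 0.23 in KO and -1.37 in WT.

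On the mitosis and replication list 10 of 13 named clusters of 49 genes had a 2-fold lower response in KO and none a higher one, with a median of -1.47. Of these, 7 were gained falls, such as Plk1, a mitotic kinase, with 10.39 with IL-4 and 12.01 untreated in KO, against 11.77 and 11.52 in WT. The other 3, Mcm2, Ccne1 and Rrm2, which act at the start or during DNA replication, were lost rises. Rrm2, a subunit of the enzyme that makes DNA precursors, had 13.28 with IL-4 and 12.63 untreated in KO, against 13.77 and 12.09 in WT. Of the 13, 8 were named only because they differed between KO and WT with IL-4. Of the 220 clusters named in that way alone and lower in KO with IL-4, 59.5% had a 2-fold lower response in KO. The 5 list members that rose in WT belong to a set where 20.0% of all clusters were lower.

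**Figure D4:**
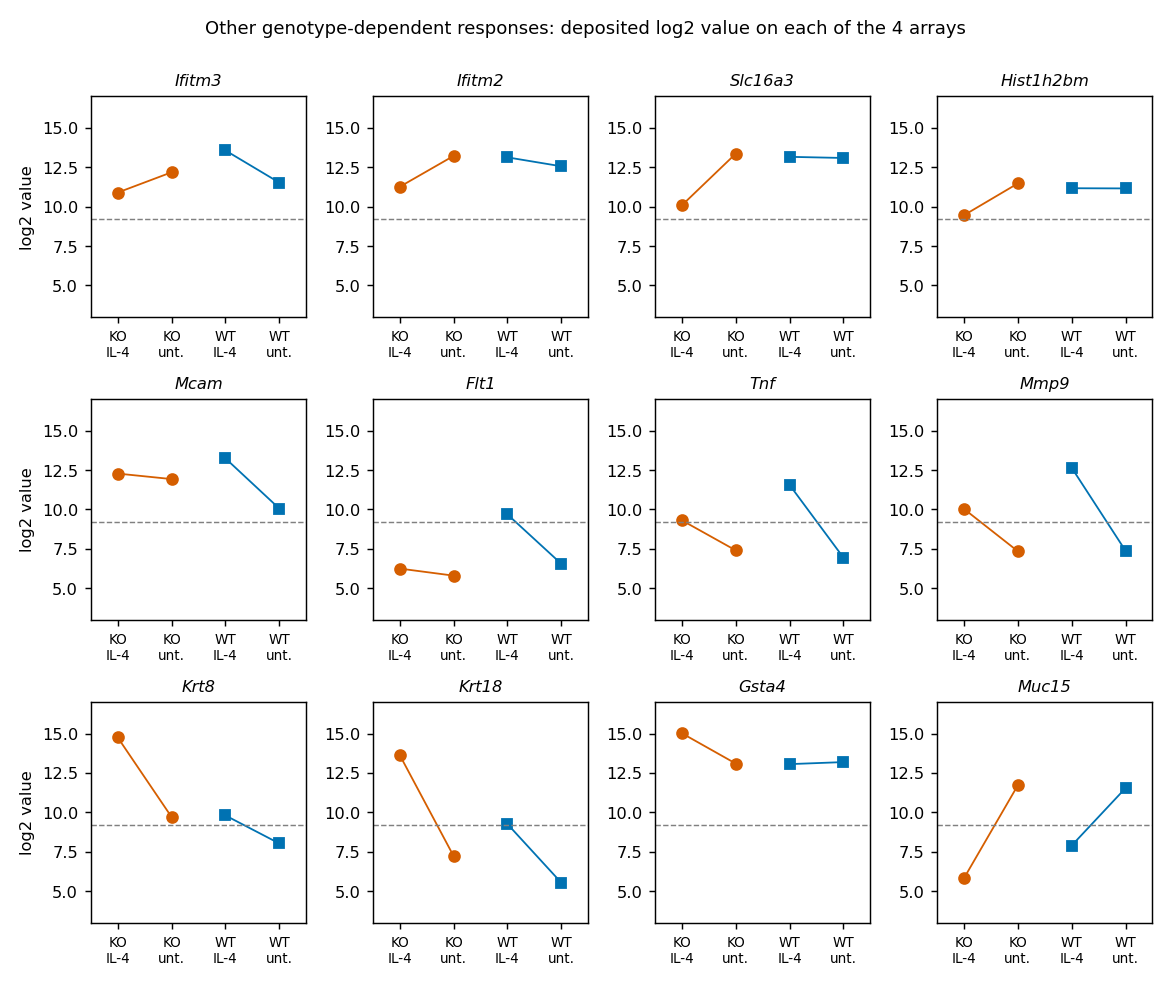
Deposited log2 value of 12 further genes on each array (circles, KO; squares, WT; "unt.", untreated; lines join the 2 dishes of a genotype; dashed line, 9.21, the level that 95% of control rows do not exceed). Slc16a3 and Hist1h2bm are low on the KO IL-4 array alone, Tnf, Mmp9 and Flt1 are high on the WT IL-4 array, and Krt8 and Krt18 are highest on the KO IL-4 array.

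Gained and strengthened rises held keratins of simple epithelia and detoxification genes. Krt8 had 14.76 with IL-4 and 9.71 untreated in KO, against 9.80 and 8.03 in WT, a response of 5.05 in KO and 1.78 in WT. Its partner Krt18 had 13.63 with IL-4 and 7.23 untreated in KO, against 9.26 and 5.53 in WT and a difference of the responses of 2.68. Both untreated Krt18 values, and that of Krt8 in WT, were under 9.21, so these sizes are uncertain. Of 4 named keratins of simple epithelia, Krt7 was a weakened rise at -1.26, and Krt23, which fell in WT, had a difference of 0.37.

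Of 21 named NRF2 and glutathione clusters 8 had a 2-fold higher response in KO and 1 a lower one, with a median of 0.76. Of the 21, 16 rose in WT, where 2.16% of all clusters were higher. Among these the higher ones were Gsta3, Gsta2 and Nqo1. The other 5, Srxn1, Slc7a11, Hmox1, Gsta4 and Cbr3, were all higher, but were named only through the KO against WT table with IL-4. Of the 314 clusters named in that way 14.0% were higher, a share that includes 220 lower in KO with IL-4. It is therefore not a matched background for these 5. Gsta4, a glutathione transferase, was a gained rise, with 15.02 with IL-4 and 13.10 untreated in KO, against 13.06 and 13.19 in WT, so the KO IL-4 array alone was high. Srxn1, which repairs peroxiredoxins, had 11.10 with IL-4 and 9.07 untreated in KO, against 9.41 and 8.66 in WT. Nqo1, a quinone reductase, was a strengthened rise of 4.38 in KO and 3.21 in WT. The epoxide hydrolase Ephx1 was the lower one, a lost rise at -1.14. Of the 10 well measured list members 2 were 2-fold higher, Gsta4 and Slc7a11, and 1 was lower, with a median of 0.48. Slc7a11 is also on the ATF4 list. Both untreated values of Srxn1 were under 9.21. The NRF2 element, searched as TGACNNNGC, was found in 2 of 6 promoter windows of the 8 higher genes, beside 14.0% of all genes. These genes came from the NRF2 list, so this comparison says nothing about the genotype either.

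Abcc3, an exporter of conjugated compounds, was the largest well measured strengthened rise, with 13.91 with IL-4 and 9.90 untreated in KO, against 11.95 and 9.44 in WT. Gadd45a, a stress-induced growth arrest gene, rose by 4.02 in KO and 2.03 in WT. Ttc9 and Rassf6 were gained rises of 3.49 and 3.07 in KO with responses of 0.29 and 0.10 in WT. Like Slc7a11, both were 2-fold lower in KO untreated and 2-fold higher in KO with IL-4, with Rassf6 under 9.21 on every array.

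Strengthened falls numbered 42. Muc15, a membrane mucin gene, had 5.81 with IL-4 and 11.71 untreated in KO, against 7.89 and 11.54 in WT. Its IL-4 values were under 9.21 in both genotypes, and the difference was -2.25. Well measured examples were Fxyd3, a regulator of the sodium pump, with 9.46 with IL-4 and 12.49 untreated in KO, against 11.27 and 12.72 in WT, and the apolipoprotein gene Apoe, with 11.16 and 13.67 in KO against 10.28 and 11.33 in WT. Fxyd3 was apart with IL-4 and Apoe in untreated cultures.

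**Figure D5:**
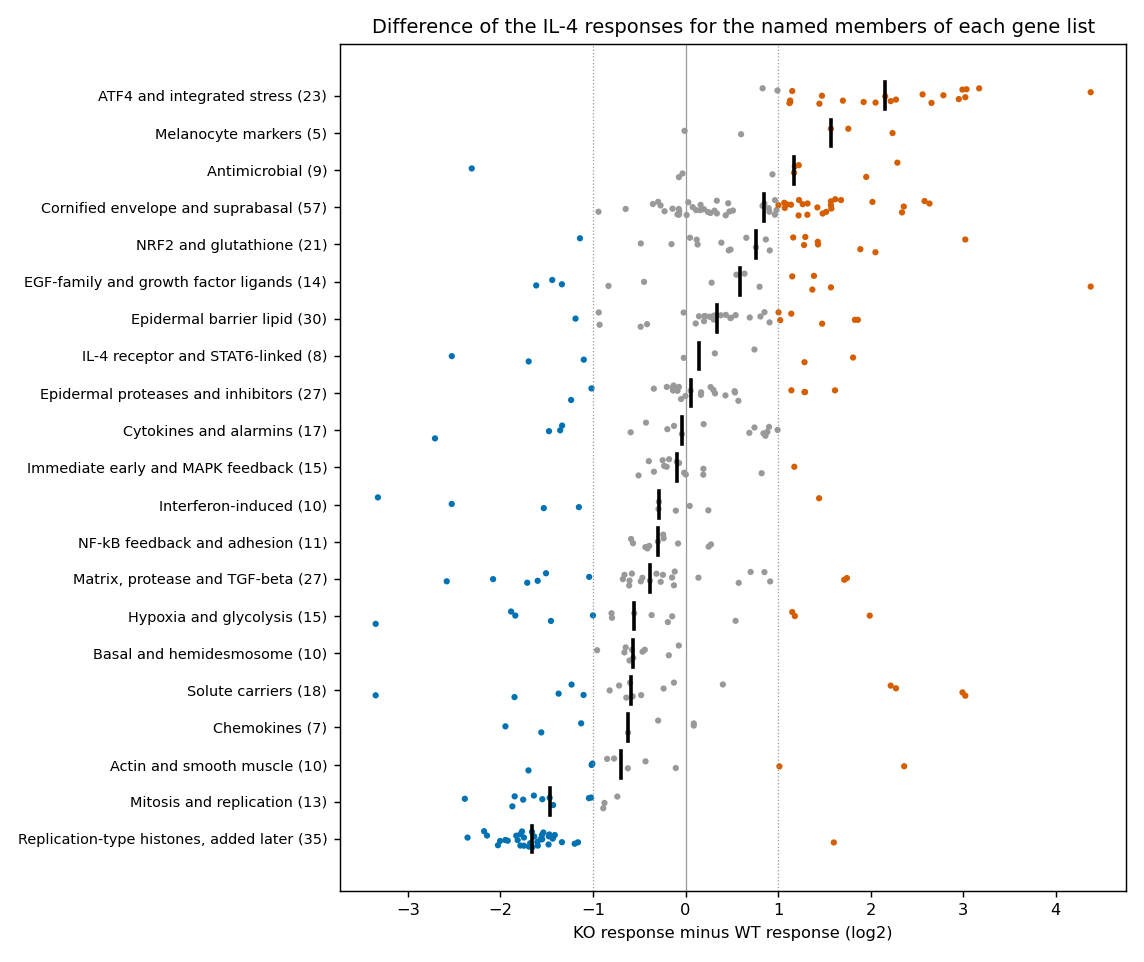
KO response minus WT response (log2) for the named members of each gene list with at least 5 named clusters, the number in brackets (orange, at least 2-fold higher in KO; blue, at least 2-fold lower; grey, under 2-fold; black bars, list medians). The ATF4 list has the highest median, 2.16, and the histones, grouped after their values were seen, the lowest, -1.65.

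Markers of other cells could be followed only where a deposited table named them. Of 12 melanocyte markers 5 had a named cluster, and their values ranged from 6.30 to 13.46 with IL-4 and 5.43 to 12.61 untreated in KO, against 5.01 to 11.83 and 4.14 to 12.55 in WT. In 3 of the 5 the response was 2-fold higher in KO, namely Kit (2.24), Dct (1.76) and Tyrp1 (1.57). Of the 5, 3 fell in WT, Kit and Dct among them, and 23.0% of all clusters that fell in WT were higher. The other 2, Tyrp1 among them, were named only through the KO against WT table with IL-4. Of all 314 clusters named in that way 44 (14.0%) were higher, a share over both directions of that table. The 314 include 220 that were lower in KO with IL-4, so 14.0% is not a matched background for Tyrp1. Dct, an enzyme of melanin synthesis, had 10.07 with IL-4 and 10.34 untreated in KO, against 8.51 and 10.54 in WT, low on the WT IL-4 array alone. Of 15 fibroblast markers 3 were named: Vim at 0.85 and Sparc at 0.91 were under 2-fold, and Fbln1, under 9.21 on every array, was a strengthened fall at -1.53. Of 8 endothelial markers only Flt1 was named, and of 7 Merkel cell markers only Krt8 and Krt18. Of 20 immune and Langerhans markers 2 were named, Cd68 at 1.09 and Epcam, which keratinocytes also express. The part of other cells in the results above was not tested. The 3 named keratinocyte-defining markers, Itgb4, Epcam and Dsc3, lay between 12.5 and 17.6 on every array, and none differed by 2-fold.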

How the data were processed

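Expression values were deposited for 4 samples, 1 array for each of KO with IL-4, KO untreated, WT with IL-4 and WT untreated. The authors deposited log2 values, summarised by RMA with Expression Console 1.4 per the submitters' processing notes, while the design text names the Affymetrix Exon Array Computational Tool. RMA makes array distributions alike, which removes a global change. The log2 values reach 19.8, so an unstated transformation is possible. The 2 deposited tables, on the na36 mm10 annotation per the file headers, give a signed fold score per cluster, as the authors computed it, and pair cluster and symbol. Their fold scores matched the value table within 0.0686 on the log2 scale. They held all 2610 and 898 of 899 clusters past 2-fold. Their 4 columns of per-sample values were not used.

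Differences were formed in Python 3.11.15 (pandas 2.3.3) on clusters above the level filter, and the class rule was tested on simulated data. Cyclic loess used limma 3.58.1. Of 2560 single symbols 2413 were current RefSeq symbols (GRCm38.p6) and 107 synonyms. Named genes were, per class and sign, the 10 with the largest difference of the responses and the 5 largest well measured ones, and list members. Members, lists, motifs and alternatives were chosen with earlier results of these data known. Alternatives were the level filter, the normalization, the size threshold and the exclusion of dim or very bright clusters.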

Additional observations from a re-analysis of the deposited data

Results flagged for a closer look

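The 9 clusters whose responses to IL-4 passed 2-fold in opposite directions in KO and WT rest on 1 array per group, so the difference between the genotypes was not tested. Of the 9, 5 stayed reversed under cyclic loess, and 1 cluster was reversed at a 3-fold threshold. Rises in KO against falls in WT gave a difference of the responses (KO minus WT, log2) of 4.38 for Stc2, 3.17 for Trib3, 2.99 for Slc7a3, 2.95 for Pck2, 2.79 for Mthfd2, 2.45 for Aldh18a1 and 2.10 for Deptor. Falls in KO against rises in WT gave -3.32 for Ifitm3 and -2.32 for Hmgn5.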

How the results depend on the processing

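Counts depended on the size threshold and the level of the clusters kept more than on normalization. At 1.5-fold there were 1555 clusters with a higher response in KO and 1810 with a lower one, and 1019 lost, 470 weakened, 91 reversed, 908 gained and 278 strengthened responses. At 3-fold the counts were 114 higher and 155 lower, with 78 lost, 27 weakened, 1 reversed, 58 gained and 13 strengthened. Without a level filter 971 were higher and 972 lower, so the excess of lower responses was not seen there. With the highest value at least 9.21 there were 238 higher and 326 lower, with 157 lost and 131 gained. Without any cluster that had a value under 9.21, which left 4708, the counts were 108 higher and 185 lower, with 83 lost, 37 weakened, 4 reversed, 82 gained and 14 strengthened. Fewer clusters enter these last settings.

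Cyclic loess left 5 of the 9 reversed clusters reversed, and median centring 8. Of 361 lost responses 316 remained lost under cyclic loess, and of 286 gained 263 remained gained. All 469 named clusters kept the sign of a 2-fold difference under both, and moved by less than 0.53. Among well measured members, list medians moved by over 0.53 for the ATF4 list (1.47, 9 clusters) and for growth factor ligands, whose median changed sign (-0.83 over 7 clusters, 0.59 over all 14). They also moved for the interferon (-2.93), IL-4 receptor (0.90) and antimicrobial (0.58) lists, each with 2 such clusters. No paired analysis was possible because each group has 1 array. Signal limits the rest: 13.7% of clusters with a mean level under 7 differed by 2-fold, against 6.99% of those between 13 and 16.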
